A study of Mus musculus with 9 samples.

Results

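The binding of CTCF and of Rad21, a subunit of cohesin, was examined at Bcl6 and Bach2, which encode 2 repressors used by developing lymphocytes. A peak was taken as a member when at least 1 bp of it lay in the gene body or within 300 kb on either side. This gave 230 of the 190262 peaks in the 5 deposited lists, 94 at Bcl6 and 136 at Bach2. Merging overlapping peaks of all lists gave 44 sites at Bcl6 and 54 at Bach2, of 83461 in the genome. All cells came from C57BL/6 mice, and each library was the only 1 of its antibody and cell type. CTCF was profiled in RAG-/-µ+ pre-B cells, which are RAG deficient and carry a rearranged IgM transgene, and in a culture of RAG1-/- pro-B cells grown with IL7 for 7 days, called the IL7 pro-B culture below. Rad21 was profiled in the same kind of pre-B cells, in CD4-CD8- (DN) thymocytes of Rag1-/- mice, and in CD4+CD8+ (DP) thymocytes of Rag1-/- mice with a rearranged TCRb transgene. The B lineage donors were 6 to 14 weeks old and of both sexes, and the thymus donors were 4 to 8 weeks old. None of these cells can rearrange their own antigen receptor genes, so the pre-B and DP cells hold only the receptor chain that the transgene supplies.

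Bcl6 is a zinc finger repressor with a BTB domain that recruits the corepressors NCoR and BCoR. It is best known for the germinal centre B cell and the follicular helper T cell, and in the pre-B cell it lowers the p53 and Arf response while light chain genes are being cut and joined. Bach2 is a basic leucine zipper repressor, also with a BTB domain, that binds DNA together with the small Maf proteins. It acts at the pre-B receptor checkpoint, holds back Prdm1 in mature B cells, and restrains effector programmes in T cells. CTCF binds a long directional motif and stops cohesin as it extrudes loops, while cohesin without CTCF is often found at active enhancers and promoters. RNA was not measured here, so the data speak of binding calls and not of the expression of either gene.

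The sequences under the strongest pre-B CTCF peaks that held a consensus match within 2 mismatches are shown first, because the direction of a CTCF motif is part of what the site is. The capitals mark the best match to the consensus that the study found de novo with HOMER. It is only a part of the motif library that the study considered, so a peak without a match here may hold another form of the motif. Each run of sequence is printed on the strand that carries the consensus. The usual forward form of the CTCF core is the reverse complement of these capitals, so it lies on the opposite strand. Positions are in mm9, and distances are counted in kb from the outermost annotated start of the gene, with upstream positions negative. The Bcl6 site at 90.1 kb lay downstream near Sst at chr16:23899121-23899172, and the next pair lay in a Bcl6 intron at chr16:23982786-23982837 and chr16:23984429-23984480. The Bach2 sites lay at chr4:32142263-32142314, chr4:32240500-32240551, chr4:32335981-32336032 and chr4:32673747-32673798, of which the third lies inside the gene and the fourth just past its 3′ end.
Bcl6, 90.1 kb: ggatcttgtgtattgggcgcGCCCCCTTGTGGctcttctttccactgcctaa
Bcl6, 6.37 kb: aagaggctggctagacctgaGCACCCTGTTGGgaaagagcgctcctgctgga
Bcl6, 4.87 kb: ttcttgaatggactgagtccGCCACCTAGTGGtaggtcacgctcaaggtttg
Bach2, -184 kb: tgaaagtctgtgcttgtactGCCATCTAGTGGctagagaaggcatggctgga
Bach2, -85.3 kb: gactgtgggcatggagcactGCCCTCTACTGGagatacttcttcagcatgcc
Bach2, 10.0 kb: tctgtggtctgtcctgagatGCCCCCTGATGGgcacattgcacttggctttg
Bach2, 348 kb: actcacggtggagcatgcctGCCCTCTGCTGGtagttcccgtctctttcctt
The consensus was matched within 2 mismatches in 6 of the 12 pre-B CTCF peaks of the Bcl6 window (50.0%, exact 95% interval 21.1 to 78.9) and in 12 of the 27 of the Bach2 window (44.4%, 25.5 to 64.7). Over all pre-B CTCF peaks the share was 48.3%, which lies inside both intervals. Sequence 2000 bp away from the peaks matched in 8.33% at Bcl6, 11.1% at Bach2 and 8.97% over all peaks. In the Bcl6 window the usual forward motif was on the plus strand at 4 sites and on the minus strand at 2. The 2 minus-strand motifs were those downstream of the gene, at 90.1 and 34.9 kb, and the plus-strand motifs were the 3 in the intron and the site at -267 kb. The intronic and the downstream motifs therefore faced away from each other. In the Bach2 window 8 were on the plus and 4 on the minus strand. The motifs at -184 and -85.3 kb were on the plus strand and that at 10.0 kb was on the minus strand, so that these faced each other across the Bach2 start. A further motif upstream, at -181 kb under a pre-B CTCF peak above 71.8% of the list, was on the minus strand and faced away from the start. The match at 10.0 kb lay at the flank of its site. It was inside the broad pre-B CTCF peak but outside every Rad21 peak of the site, and in the IL7 list it lay in a separate peak above 24.3% of the list, while the strong IL7 peak beside it had no match closer than 3 mismatches. The motif past the 3′ end was again on the plus strand. Exact intervals here and below treat sites as independent and cover counting error only.

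Bcl6 (ENSMUSG00000022508.5) lies on the minus strand at chr16:23965138-23988938 and spans 23.8 kb. Bach2 (ENSMUSG00000040270.9) lies on the plus strand at chr4:32325779-32673083. The 250 bases in front of the outermost start of each gene are shown because the libraries differed there.
Bcl6 promoter, chr16:23988939-23989188, minus strand: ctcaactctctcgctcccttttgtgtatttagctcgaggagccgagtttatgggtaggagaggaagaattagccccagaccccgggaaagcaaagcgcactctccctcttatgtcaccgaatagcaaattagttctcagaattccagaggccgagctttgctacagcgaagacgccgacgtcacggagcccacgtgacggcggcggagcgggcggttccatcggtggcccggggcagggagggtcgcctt
Bach2 promoter, chr4:32325529-32325778, plus strand: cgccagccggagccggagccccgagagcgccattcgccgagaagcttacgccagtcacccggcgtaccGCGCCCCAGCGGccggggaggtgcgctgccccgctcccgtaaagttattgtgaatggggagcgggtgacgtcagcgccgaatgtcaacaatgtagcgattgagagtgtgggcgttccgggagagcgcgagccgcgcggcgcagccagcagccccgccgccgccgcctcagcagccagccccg
The capitals in the Bach2 sequence mark its best match to the CTCF consensus, with 3 mismatches. The Bcl6 sequence had none closer than 4 mismatches. A match within 3 mismatches is common, since 38.5% of the promoters of 22350 protein-coding genes held one in the same 250 bases. The Bach2 stretch was richer in G and C, at 71.2%, than the Bcl6 stretch, at 58.4%, and the median of all promoters was 54.0%.

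The lists differed in length, and this bears on every comparison between them. For CTCF, 42250 peaks were called in pre-B cells and 71080 in the IL7 pro-B culture. For Rad21 the pre-B list held 30488 peaks, the DN list 9701 and the DP list 36743. A site missing from a list was not called there, which does not show that it was unbound. How many reads lie behind a list is unknown. The score of a peak comes from its p-value against input and grows with depth, so a peak is described by the percentage of its own list that scored lower. With 1 library per condition no test between cell types was possible, and no value below carries an error between animals.

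The Bcl6 window was dense in Rad21 peaks in DP thymocytes and ordinary in the other lists. There were 12 pre-B CTCF peaks, or 19.2 per Mb, and 21 in the IL7 pro-B culture, or 33.7 per Mb. There were 15 pre-B Rad21 peaks (24.0 per Mb), 5 in DN (8.02 per Mb) and 41 in DP thymocytes (65.7 per Mb). The medians over the windows of all 22350 protein-coding genes, drawn in the same way, were 28.2 and 46.6 per Mb for the CTCF lists and 19.8, 6.35 and 23.2 per Mb for pre-B, DN and DP Rad21. The DP density at Bcl6 was above that of 94.5% of gene windows, against 58.5% for pre-B and 60.5% for DN Rad21 and 33.7% and 35.7% for CTCF in pre-B cells and the IL7 pro-B culture. Windows of neighbouring genes overlap, so these percentages are descriptions.

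The Bach2 window had no list as far from the middle of the range as DP Rad21 at Bcl6. It held 27 and 39 CTCF peaks in pre-B cells and the IL7 pro-B culture, or 28.5 and 41.2 per Mb. There were 24 pre-B, 9 DN and 37 DP Rad21 peaks, or 25.3, 9.50 and 39.1 per Mb. The Rad21 densities were above those of 61.1%, 69.0% and 73.9% of gene windows, and the CTCF densities above 50.7% and 43.8%.

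**Figure D1:**
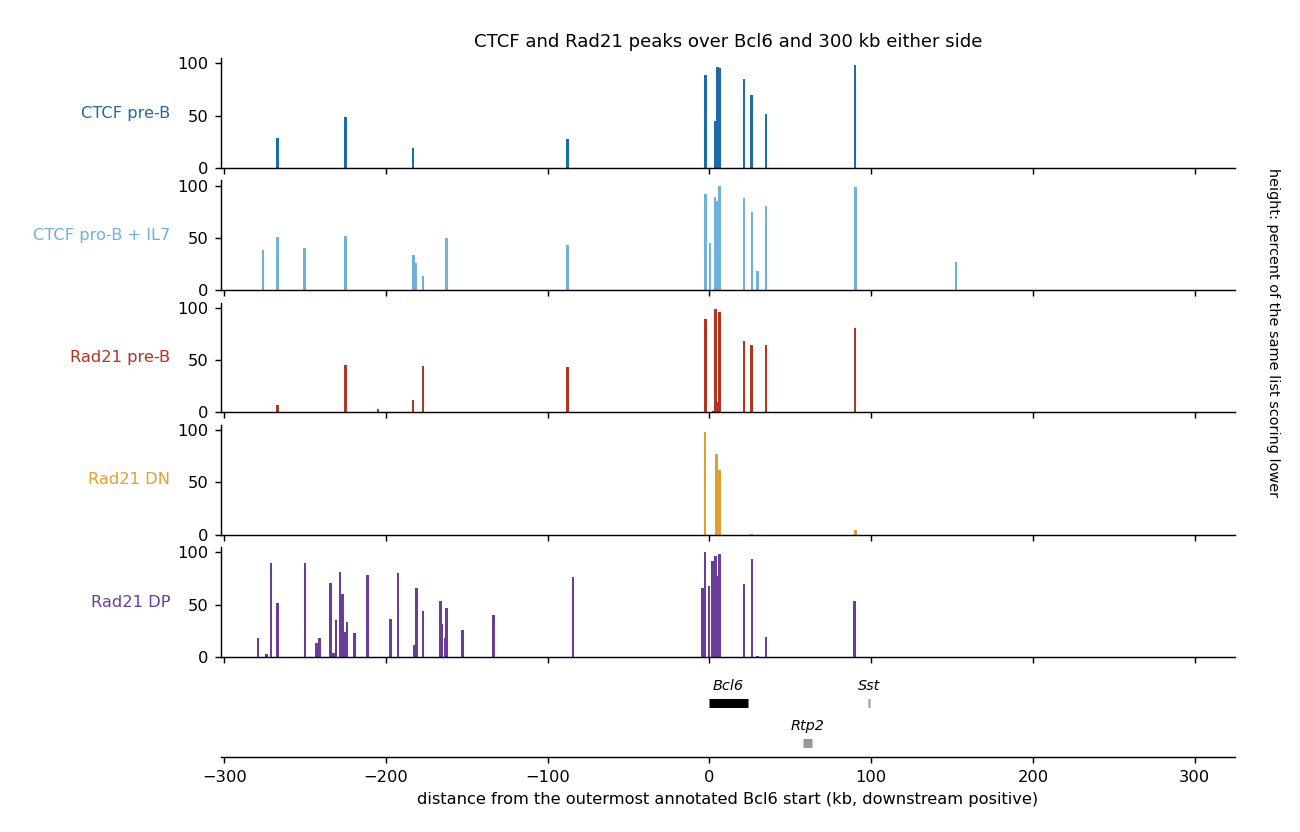
Peaks of the 5 lists over Bcl6 and 300 kb on either side, by distance from the outermost annotated start in kb (horizontal axis, downstream positive), with bar height giving the percentage of the same list that scored lower and grey bars below marking other protein-coding genes. The 28 DP Rad21 peaks between 134 and 279 kb upstream stand where pre-B cells had 5 Rad21 peaks and DN thymocytes had 0.

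The promoters differed in their calls. Within 1 kb of the Bcl6 starts, CTCF was called in the IL7 pro-B culture at chr16:23988433-23988893, above 45.2% of that list, and not in pre-B cells. Rad21 was called there in DP thymocytes, in a broad peak at chr16:23988602-23989931 that scored above 67.4% of the list, and in neither pre-B cells nor DN thymocytes. A further DP peak, at chr16:23986184-23988152 and above 91.7% of the list, reached from the promoter into the intron, and the pre-B Rad21 peak that overlapped its far end scored above only 0.751% of its list. Over all protein-coding genes, promoters had a peak in 27.1% and 38.8% for CTCF in pre-B cells and the IL7 pro-B culture, and in 20.9%, 4.57% and 33.0% for Rad21 in pre-B, DN and DP cells. Bach2, with 8 annotated starts against 2 for Bcl6, had promoter peaks in all 5 lists. At its outermost start, chr4:32325272-32326005, CTCF was called in both B lineage libraries (above 26.0% of the pre-B and 61.7% of the IL7 list) and Rad21 in DP thymocytes alone (56.0%). The next site, around 0.983 kb, was called in all 5 lists, with pre-B Rad21 above 62.5%, DN above 33.2% and DP above 40.1% of their lists. CTCF there scored above 50.2% of the IL7 list and above only 2.83% of the pre-B list, near the lowest score kept.

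A cluster of peaks in a Bcl6 intron ranked high in both lineages. It spanned chr16:23981983-23986044, 4062 bp, and was built from 15 peaks. Pre-B CTCF peaks there scored above 95.7%, 96.4% and 45.2% of the list, and the 4 CTCF peaks of the IL7 pro-B culture above 99.3%, 72.7%, 85.4% and 89.0%. Pre-B Rad21 had peaks above 98.9%, 96.6% and 9.95% of its list, the strongest of which ranked 326. DP Rad21 had peaks above 98.2%, 96.5% and 77.1%. DN Rad21 had 2 peaks, above 77.3% and 62.1%. The best peak of the cluster was thus above at least 96.4% of the list in every library but DN. The cluster contains the matches at 6.37 and 4.87 kb printed above.

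A compact site just upstream of the Bcl6 promoter ranked highest of the window in both thymocyte lists. At chr16:23991027-23992041, around -2.60 kb, all 5 lists had a peak. DP Rad21 ranked 11 of 36743 there with a score of 3106.69, and DN Rad21 ranked 177 of 9701. Pre-B Rad21 scored above 89.8% of its list, and CTCF above 89.0% in pre-B and 92.4% in the IL7 pro-B culture. No consensus match within 2 mismatches was found under the CTCF peaks of this site. At -4.11 kb a further Rad21 peak was called in DP thymocytes only, above 65.7% of the list.

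**Figure D2:**
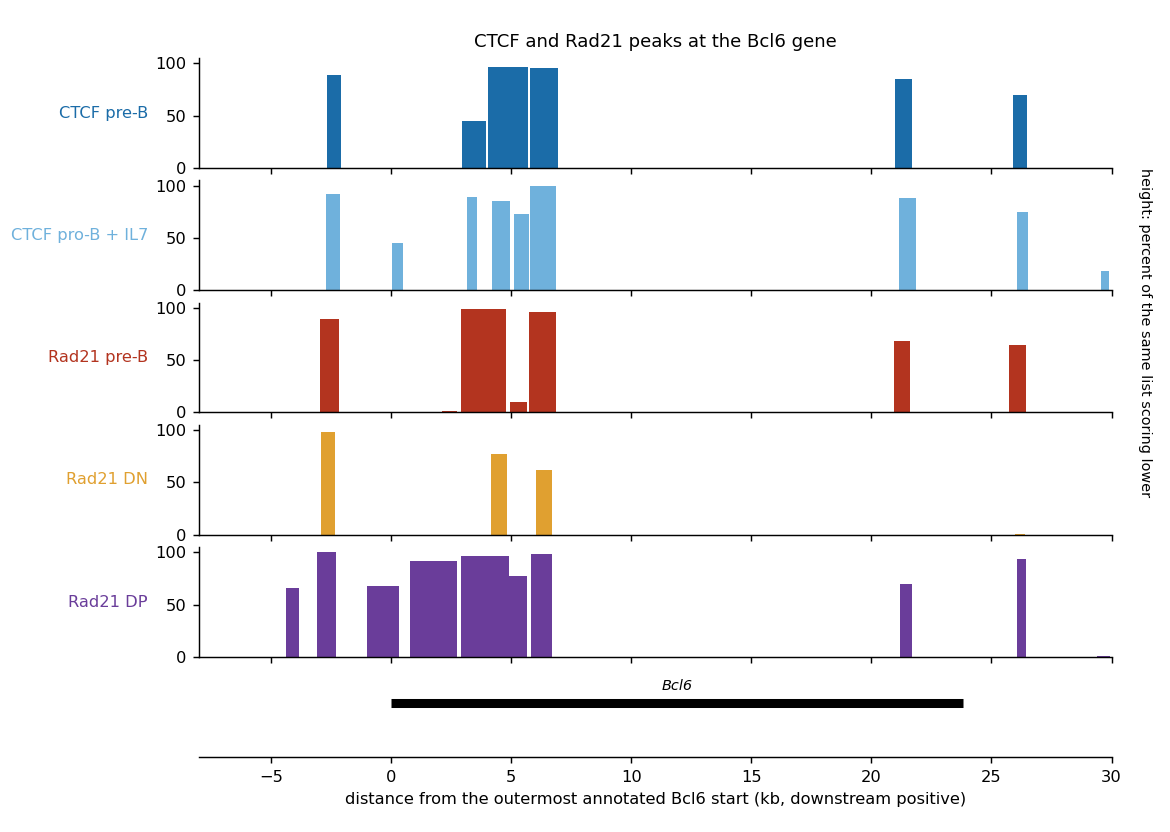
The same peaks at the Bcl6 gene itself, by distance from the outermost annotated start in kb (downstream positive), with bar height giving the percentage of the same list that scored lower. The intronic cluster and the site near -2.60 kb hold peaks of all 5 lists, while the promoter has peaks only of CTCF in the IL7 pro-B culture and of Rad21 in DP thymocytes.

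Farther into and past Bcl6 most Rad21 sites were shared by pre-B and DP cells. An exonic site at 21.4 kb was called for CTCF above 85.1% and 87.9% of the pre-B and IL7 lists and for Rad21 above 67.9% in pre-B and 70.1% in DP cells, without a DN peak. Past the 3′ end, the site at 26.1 kb was called in all 5 lists, with DP Rad21 above 93.8%, pre-B Rad21 above 64.7% and DN Rad21 above just 0.124%. The site with the motif at 34.9 kb had Rad21 in pre-B (64.7%) and DP (19.2%) but not in DN cells. The site at 29.7 kb had only weak IL7 CTCF (18.6%) and DP Rad21 (0.514%) peaks, and at 152 kb there was a CTCF peak of the IL7 pro-B culture alone (26.7%). The CTCF site next to Sst, the somatostatin gene, ranked 716 for pre-B and 626 for the IL7 pro-B culture. Rad21 there scored above 80.5% of the pre-B, 53.4% of the DP and 4.21% of the DN list.

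The region upstream of Bcl6 held mainly DP calls. When the Rad21 peaks of the 3 cell types were merged with each other alone, the Bcl6 window had 44 Rad21 sites. Of these, 29 were called in DP only (65.9%, 50.1 to 79.5), against 33.6% of the 46478 Rad21 sites of the genome. A further 7 were called in pre-B and DP (15.9%, 6.64 to 30.1; genome 25.1%) and 5 in all 3 cell types (11.4%, 3.79 to 24.6; genome 18.7%), with intervals that include the genome's share. Another 3 were called in pre-B only (6.82%, 1.43 to 18.7; genome 20.6%). Pre-B cells thus had 15 of the 44 sites, 34.1%, against 65.2% in the genome. With windows of 100 kb, which leave out the distal upstream stretch, the shares turned, to 28.6% (4 of 14) in DP only and 71.4% (10 of 14) with a pre-B call. In the full window DP cells had 41 of the 44 sites, 93.2%, against 78.2% in the genome. The DP-only calls lay on the upstream side. Among the 34 sites more than 1 kb upstream, 27 were DP only (79.4%, 62.1 to 91.3) and 7 had a pre-B call. Of the other 10 sites 8 had a pre-B call, and every 1 of the 10 had a DP call.

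**Figure D3:**
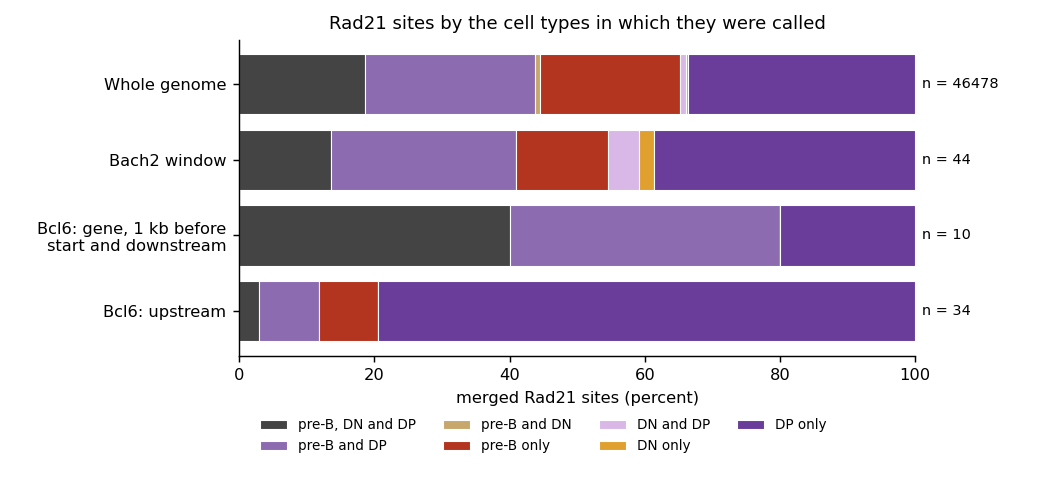
Merged Rad21 sites by the cell types that called them, as percentages of the sites in each row (horizontal axis), for the genome, the Bach2 window, and the Bcl6 window divided into its upstream side and the rest. DP-only sites make up 79.4% of the 34 upstream Bcl6 sites, 38.6% of the 44 Bach2 sites and 33.6% of the genome's sites.

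Between 100 and 300 kb upstream of Bcl6 there were 28 DP Rad21 peaks, the nearest at 134 and the farthest at 279 kb. Their median spacing was 4.20 kb, with a range from 0.600 to 19.2 kb. No protein-coding gene lies in this stretch, and the next start upstream is that of Lpp, 404 kb from the Bcl6 start. In the same stretch pre-B cells had 5 Rad21 peaks, DN thymocytes 0, and the CTCF lists 3 peaks in pre-B and 8 in the IL7 pro-B culture. Most of the DP peaks were of middle or low rank, with a median score of 107 (61.0 to 747) that lay above 35.9% of the list. A few ranked higher, and only some of these are given here. The DP-only site at -271 kb scored above 90.2% of the list, that at -250 kb above 89.9%, that at -193 kb above 80.6% and that at -211 kb above 78.5%. Nearer the gene, a DP-only site at -84.3 kb scored above 76.3%. At the weak end, the sites at -274, -232 and -183 kb scored above 2.98%, 3.76% and 11.5%.

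The upstream DP sites were mostly free of CTCF in the B lineage lists. Of the 29 DP-only sites in the window 24 overlapped no CTCF peak of either B lineage library (82.8%, 64.2 to 94.2), against 65.7% of DP-only sites in the genome. That interval includes the genome's share. These 24 were 54.5% of all Rad21 sites of the window, against 22.0% in the genome. All 24 lay upstream. The CTCF consensus was matched within 2 mismatches in 2 of the 24 (8.33%, 1.03 to 27.0), where neighbouring sequence gave 12.5% and all such sites of the genome 9.67%, and in 0 of the 11 at Bach2 (upper bound 28.5%). The other 5 overlapped a CTCF peak of the IL7 pro-B culture alone, at 29.7 kb, at the promoter, and at -163, -181 and -250 kb. CTCF was not profiled in thymocytes in the files used here, so whether CTCF was present at these sites in DP cells was not examined. Sites of this kind came to 38.5 per Mb at Bcl6, above 99.5% of the 22350 gene windows, of which 113 were as dense, Bcl6 included. The median window had 4.07 per Mb, and the Bach2 window had 11 such sites, 11.6 per Mb, above 82.8%. With the DP list limited to as many peaks as the pre-B Rad21 list, 19 sites stayed at Bcl6 (99.6% of windows less dense) and 9 at Bach2.

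**Figure D4:**
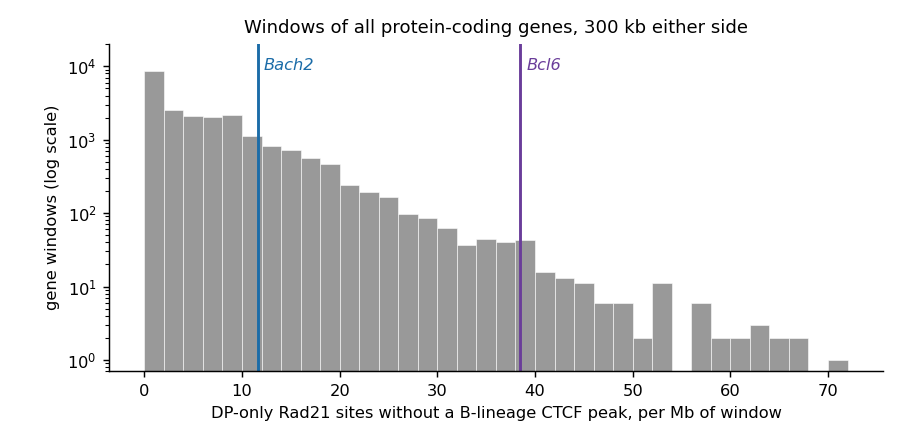
Windows of the 22350 protein-coding genes by their density of DP-only Rad21 sites without a B lineage CTCF peak (horizontal axis, sites per Mb; vertical axis, number of gene windows, log scale). Vertical lines mark Bach2 at 11.6 and Bcl6 at 38.5 per Mb, and the median window has 4.07.

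Of the 29 DP-only sites at Bcl6, 24 overlapped no B lineage CTCF peak. The central 300 bases of 2 of the stronger of these are shown. They lie at chr16:24260013-24260312 and chr16:24181428-24181727 and are printed on the plus strand. Capitals mark the letters AGGAAG, a core bound by ETS factors.
-271 kb: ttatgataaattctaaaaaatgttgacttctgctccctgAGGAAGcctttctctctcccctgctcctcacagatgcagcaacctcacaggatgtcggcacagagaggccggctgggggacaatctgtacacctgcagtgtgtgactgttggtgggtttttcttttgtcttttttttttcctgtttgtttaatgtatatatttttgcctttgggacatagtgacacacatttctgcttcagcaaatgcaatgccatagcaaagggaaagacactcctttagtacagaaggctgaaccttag
-193 kb: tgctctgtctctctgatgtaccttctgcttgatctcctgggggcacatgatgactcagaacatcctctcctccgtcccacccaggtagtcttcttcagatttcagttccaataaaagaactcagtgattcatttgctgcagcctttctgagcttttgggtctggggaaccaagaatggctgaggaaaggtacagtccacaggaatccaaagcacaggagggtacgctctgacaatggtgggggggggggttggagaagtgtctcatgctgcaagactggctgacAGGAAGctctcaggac
AGGAAG was found on either strand in 18 of the 24 central stretches (75.0%, 53.3 to 90.2), against 47.0% of all such sites in the genome. The same letters stood in 58.3% of stretches 2000 bp away at Bcl6 and in 33.9% of such stretches genome-wide. TCAAAG, a core bound by Tcf7 and Lef1, was found in 10 of 24 (41.7%, 22.1 to 63.4; genome 20.1%; neighbouring sequence 16.7%). Genome-wide, sequence 2000 bp away from such sites held TCAAAG in 19.8%, about as often as the sites themselves. The E-box CAGCTG was found in 8 of 24 (33.3%; genome 26.8%; neighbouring sequence 12.5%), and TGTGGT, a Runx core, also in 8 of 24 (33.3%; genome 27.3%; neighbouring sequence 29.2%), both with intervals of 15.6 to 55.3 that include the genome's value. In the 11 such sites of the Bach2 window the counts were 5 for AGGAAG, 5 for CAGCTG, 3 for TGTGGT and 2 for TCAAAG. None of these letter strings contains another, and they were chosen with the peak calls known. A match is a description of the sequence, and it says nothing of which factor was bound.

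There were 3 pre-B Rad21 sites in the Bcl6 window that neither thymocyte list called. The site at -87.9 kb carried CTCF in both B lineage lists and scored above 43.2% of the pre-B Rad21 list. The site at chr16:24171823-24172737, at -183 kb, also carried CTCF and scored above 12%. It lay beside the DP-only site at chr16:24171230-24171736, also at -183 kb, without overlapping it. The site at -205 kb had no CTCF and scored above 3.02%. None of the 3 reached the middle of its list.

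Bach2 had a mix of Rad21 calls nearer to that of the genome. Its window had 44 Rad21 sites when the 3 cell types were merged, of which 37 had a DP call (84.1%) and 24 a pre-B call (54.5%). DP-only sites made up 17 of them (38.6%, 24.4 to 54.5), an interval that includes the genome's share. With all lists limited to equal length the share was 16.7% (2 of 12). Those 2 sites, at 507 and 562 kb, had pre-B Rad21 calls in the full lists, so they are not among the 17. In the full lists there were 12 in pre-B and DP (27.3%), 6 in all 3 cell types (13.6%), 6 in pre-B only (13.6%), 2 in DN and DP (4.55%; genome 0.940%) and 1 in DN only (2.27%; genome 0.310%). Of the 17 DP-only sites 11 had no B lineage CTCF peak (64.7%, 38.3 to 85.8), near the share in the genome.

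The strongest sites of Bach2 were spaced along and around the gene and were called in all 5 lists or nearly so. Upstream, the site at -85.2 kb scored above 85.5% and 87.0% of the pre-B and IL7 CTCF lists and above 94.9%, 61.9% and 98.4% of the pre-B, DN and DP Rad21 lists. The site at -184 kb scored above 84.6% and 95.7% for CTCF, 87.5% for pre-B and 81.8% for DP Rad21, without a DN peak. Inside the gene, at an internal annotated start around 9.62 kb, CTCF scored above 96.8% and 96.9% and Rad21 above 95.3% in pre-B, 47.0% in DN and 83.3% in DP cells. Just past the 3′ end, at 348 kb, the values were 84.2% and 77.6% for CTCF and 90.3%, 80.2% and 94.8% for Rad21. These include the 4 Bach2 sequences printed above.

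The Bach2 gene body, which is 347305 bp long, had few sites in its middle. The body held 4 pre-B, 5 DN and 12 DP Rad21 peaks, and CTCF had 7 in pre-B and 11 in the IL7 pro-B culture. A Rad21 site at 19.5 kb without CTCF was called in pre-B and DP cells, above 5.61% and 25.8% of the lists. At 104 kb CTCF was called in both B lineage lists, above 53.7% and 61.5%, with no Rad21 in any cell type. A CTCF site at 313 kb was likewise without Rad21, at 43.6% and 63.6%, and weaker IL7 CTCF peaks stood at 141 kb alone (16.9%) and at 175 kb with DP Rad21 (34.0%).

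Several sites in the 3′ part of Bach2 were called in thymocytes and not in pre-B cells. At 280 kb Rad21 was called in DN and DP, above 21.9% and 46.2% of the lists, with no CTCF in the B lineage. At 299 kb it was called in DN only, above 30.5%, with an IL7 CTCF peak (43.3%). DP-only calls followed at 322 kb (27.7%), at an exon at 323 kb with CTCF in both B lineage lists (40.8%), at an internal start at 336 kb with IL7 CTCF (39.3%), and at an exon at 343 kb (12.5%), as well as at 11.1 kb near the 5′ end (18.5%). The site at 334 kb was called in all 5 lists, with Rad21 above 38.9% in pre-B, 74.5% in DN and 89.1% in DP cells. It ranked higher within both thymocyte lists than within the pre-B list.

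**Figure D5:**
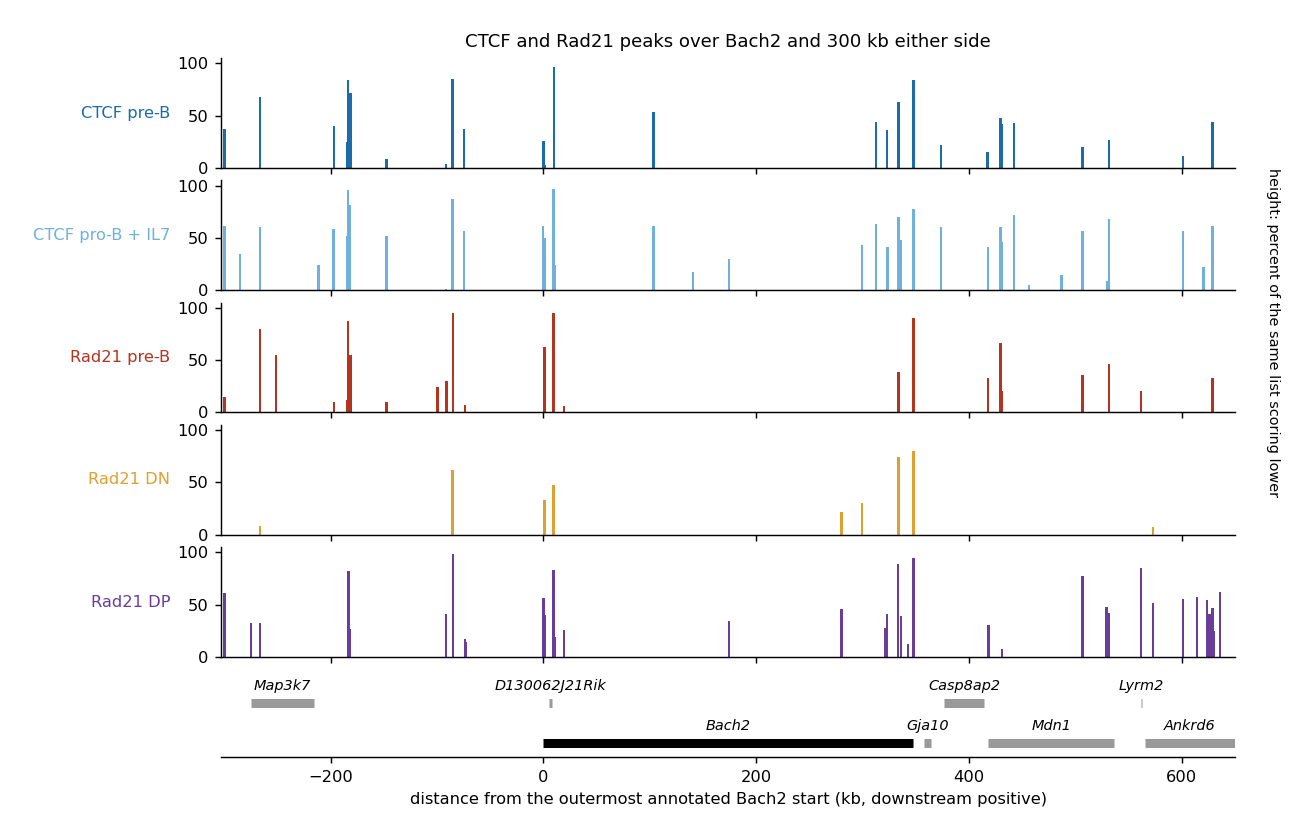
Peaks of the 5 lists over Bach2 and 300 kb on either side, by distance from the outermost annotated start in kb (horizontal axis, downstream positive), with bar height giving the percentage of the same list that scored lower and bars below marking genes. Peaks of all 5 lists coincide near -266, -85.2, 0.983, 9.62, 334 and 348 kb, and between 19.5 and 280 kb the only Rad21 peak is that of DP cells at 175 kb.

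The 6 pre-B-only Rad21 sites of the Bach2 window lay outside the gene. The highest in rank was in Mdn1 at 430 kb, with CTCF, above 66.4% of the pre-B Rad21 list. That in Map3k7, the gene of the kinase TAK1, at -251 kb had no CTCF and scored above 55%. The site at -99.5 kb, also without CTCF, scored above 24.3%, and the sites at -197, -184 and -148 kb, each with CTCF in both lists, above 9.91%, 12% and 10.1%. Of these, the pre-B-only site at -184 kb was chr4:32141079-32141594. It lay beside the stronger site at chr4:32141732-32142759, also at -184 kb, which was called in pre-B and DP cells. Of the DP-only sites outside the gene, 8 lay downstream, in Mdn1 and Ankrd6, and 2 upstream, at -275 kb beside the Map3k7 promoter and at -72.5 kb. Their ranks ran from 2.87% at 530 kb to 62.2% at 636 kb. At 573 kb in Ankrd6 a site without a B lineage CTCF peak was called in DN (7.48%) and DP (51.8%).

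All 12 pre-B CTCF peaks at Bcl6 lay on a Rad21 peak of the same cells (100%, 73.5 to 100), as did 20 of 27 at Bach2 (74.1%, 53.7 to 88.9), and the genome's share was 63.5%. A DP Rad21 peak lay on 10 of these 12 (83.3%, 51.6 to 97.9) and 18 of these 27 (66.7%, 46.0 to 83.5; genome 52.0%). A DN Rad21 peak lay on 5 of 12 (41.7%, 15.2 to 72.3) and 6 of 27 (22.2%, 8.62 to 42.3; genome 22.0%). In the reverse direction 12 of 15 pre-B Rad21 peaks at Bcl6 and 20 of 24 at Bach2 overlapped pre-B CTCF (80.0% and 83.3%; genome 88.1%). Every pre-B CTCF peak of both windows, 12 and 27, was also called in the IL7 pro-B culture, where the genome's share was 96.0%. The IL7 list had further peaks, and 13 of its 21 at Bcl6 and 28 of its 39 at Bach2 overlapped a pre-B CTCF peak (61.9% and 71.8%; genome 58.6%).

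Seen from the DP list, a smaller share of Rad21 peaks than in the genome coincided with B lineage sites at Bcl6. Of the 41 DP peaks at Bcl6 16 overlapped CTCF of either list (39.0%, 24.2 to 55.5), and at Bach2 21 of 37 did (56.8%, 39.5 to 72.9), against 69.2% in the genome. Of the same peaks 12 at Bcl6 (29.3%, 16.1 to 45.5) and 18 at Bach2 (48.6%, 31.9 to 65.6) coincided with Rad21 in pre-B cells, and the genome's share was 56.3%. These shares describe the same DP-only sites as above and add no separate evidence.

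Among 15 genes that work with or under Bcl6 and Bach2, promoter peaks were found at 6 and 11 for CTCF in pre-B cells and the IL7 pro-B culture, and at 7, 2 and 10 for Rad21 in pre-B, DN and DP cells. The shares of all protein-coding genes were 27.1% and 38.8% for CTCF and 20.9%, 4.57% and 33.0% for Rad21. In the gene body the counts were 10 and 15 for CTCF and 7, 4 and 11 for Rad21, beside 48.1% and 59.2%, and 39.8%, 15.9% and 44.9%, of all protein-coding genes. The promoters of Bcl6b, the paralogue of Bcl6, and of Prdm1, the plasma cell regulator Blimp-1, had a peak in all 5 lists, as Bach2 did. Bach1, the paralogue of Bach2, had the promoter pattern of Bcl6, with IL7 CTCF and DP Rad21 alone, and so did the small Maf genes Mafg and Maff. These were the longest list of each antibody, and the share of all protein-coding genes with this combined pattern was not counted. The corepressor gene Ncor1 and Trp53, the p53 gene, had promoter peaks in every list but DN. Bcor had no pre-B CTCF peak at its promoter and 18 DP Rad21 peaks in its body, against 8 in pre-B cells. Irf4, a driver of light chain and plasma cell programmes, had 5 DP and 4 pre-B Rad21 peaks in its body. Cdkn2a, which encodes Arf, and the small Maf gene Mafk had CTCF in both lists and no Rad21 at the promoter, and Cdkn1a, the p21 gene, had pre-B and DP Rad21 without CTCF. The promoters of Hdac3, Atr and Chek1 had no peak in any list.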

How the data were processed

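ChIP-seq peaks of CTCF in pre-B cells and the IL7 pro-B culture, and of Rad21 in pre-B, DN and DP cells, were used. The authors aligned the reads to mm9, keeping reads that mapped to a few places, and called confident peaks against input with MACS. The submitters' processing notes name Bowtie 0.12.9 and MACS 1.4.2, and the study's methods name a different Bowtie release. The deposited lists give for each peak its coordinates and a score that MACS made from the p-value. Both pre-B libraries were called against 1 input, and the inputs were not analysed here. The depth of each library is unknown, so scores were ranked only within a list.

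Genes, starts and sequence came from the NCBIM37 assembly, which is mm9, with the GENCODE annotation. A promoter was 1 kb on either side of an annotated start. Peaks sharing 1 bp were merged into sites. Shares carry exact Clopper-Pearson intervals at 95%. A 12-base consensus found de novo with HOMER, only a part of the CTCF motif library in the study's supplement, was searched on both strands with at most 2 mismatches. Sites named are those in either gene or within 1 kb of its starts, and distal sites above 90% of a list, called for Rad21 in pre-B only, or called in thymocytes and not in pre-B cells. The Bcl6 sites at 34.9, -267 and 152 kb and the Bach2 sites at -181 and -266 kb fall outside this rule and were named after their values were seen. The pathway genes were Bach1, Bcl6b, Mafk, Mafg, Maff, Ncor1, Bcor, Hdac3, Prdm1, Cdkn1a, Cdkn2a, Trp53, Atr, Chek1 and Irf4, and a further gene of the list is not reported here. The members and lists were chosen with earlier results of these data known. The steps were tested on simulated data with planted overlaps, motifs and shares. Alternatives were scores of at least 100, lists of equal length, counting by midpoint, overlap of 50% of the shorter peak, windows of 100 kb, and 1 or 3 mismatches. The work used matplotlib 3.10.9, pysam 0.24.0, scipy 1.17.1 and numpy 2.4.6 under Python 3.11.15.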

Additional observations from a re-analysis of the deposited data

How the results depend on the processing

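Counting by midpoint left all 10 peak counts as they were. Requiring overlap of 50% of the shorter peak lowered the share of Bach2 pre-B CTCF peaks with Rad21 to 66.7% (18 of 27), inside the 95% interval given for the 1 bp overlap, and left the other shares as they were. With every list limited to the length of the DN list, 9701 peaks, the CTCF peaks of the Bcl6 window came to 5 for pre-B and 5 for the IL7 pro-B culture, and its Rad21 peaks to 4 for pre-B and 12 for DP. The Bach2 window then held 4 and 3 CTCF and 5 pre-B and 7 DP Rad21 peaks, its DP-only share was 16.7% (2 of 12 sites), and 100% of its pre-B CTCF peaks overlapped Rad21. Counted anew in these shorter lists, DP-only sites without a B lineage CTCF peak came to 7 at Bcl6 and 2 at Bach2. The Bcl6 density was above 99.3% of gene windows. Not all of these were of this kind in the full lists. At Bcl6 the site at 1.78 kb had a pre-B Rad21 call there and that at -250 kb an IL7 CTCF peak. Both Bach2 sites, at 507 and 562 kb, had a pre-B Rad21 call in the full lists. With scores of at least 100, Bcl6 had 3 DN and 27 DP Rad21 peaks. Counted anew, it had 14 DP-only sites without a B lineage CTCF peak (above 99.1% of windows). Bach2 then had 15 pre-B Rad21 peaks, and 50.0% of its pre-B CTCF peaks overlapped Rad21. With windows of 100 kb Bcl6 had 12 IL7 CTCF and 13 DP Rad21 peaks, and its Rad21 sites were called in pre-B in 71.4%, in DP only in 28.6% and in all 3 cell types in 35.7%, since the narrower window leaves out the distal upstream sites. Bach2 then had 16 and 22 CTCF and 12 pre-B and 19 DP Rad21 peaks. The consensus was matched in 16.7% and 3.70% of pre-B CTCF peaks at Bcl6 and Bach2 with 1 mismatch, and in 83.3% and 92.6% with 3. Over all pre-B CTCF peaks the shares were 16.1% and 91.2%, and the value of Bach2 at 1 mismatch, 1 of 27, was lower with an exact interval that still holds 16.1%. The alternatives for DP-only sites without a B lineage CTCF peak were chosen after seeing the data. The unknown depth and the unequal lists limit what an absent call means. No paired analysis was possible because each condition has 1 library.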

Other observations

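The DP Rad21 peaks continued beyond the 300 kb examined upstream of Bcl6. From that edge to the start of Lpp, which encodes a focal adhesion protein, there were 8 DP Rad21 peaks, 1 pre-B Rad21 peak and 0 DN peaks, with 1 CTCF peak in pre-B and 3 in the IL7 pro-B culture.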
